A study of Macaca mulatta with 102 samples.

Results

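Mammary biopsies were compared with the fat layer of milk in lactating rhesus macaques (Macaca mulatta), using RNA sequencing of both from each of 6 animals (M1 to M6). The comparison took every sample labelled Bx (6, 1 per animal) and every sample labelled Fat (10), which is 16 of the 34 samples of the series, and 13544 of 42701 transcripts were abundant enough to test. The question was how far RNA from milk fat stands in for RNA from the whole gland. All animals were lactating mothers in their prime with earlier pregnancies, and each was sedated and given oxytocin for milk let-down before milking. They were sedated further and given a local anaesthetic before the biopsy, so both sample types came from drug-treated animals. The study reported lower RNA integrity in macaque milk fat than in mammary tissue. It also left out milk RNA that it judged too poor to sequence. RNA integrity therefore differed with sample type, and its effect on the differences below was not tested. Biopsies came from day 30 after birth in M3, M4 and M6 and from day 90 in M1, M2 and M5. Milk fat came from day 30 in 4 animals and day 90 in all 6, so M4 and M5 had 1 milk fat sample each. The other 18 samples were milk cells and other milk fractions.

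A lactating gland holds milk-producing epithelial cells together with stroma, vessels, fat cells and immune cells, and a biopsy samples all of these. Milk fat leaves the epithelial cell as droplets wrapped in its own membrane, and some globules carry along a sliver of the cell's cytoplasm with its RNA. The droplet coat includes perilipin 2, while caseins and whey proteins leave the same cells by exocytosis.

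Levels are given as FPKM, the authors' estimate of fragments relative to the length of the transcript and the size of the library, as deposited and averaged over 3 technical runs. Changes are log2 fold changes, milk fat minus biopsy, of scaled FPKM with 1 added. An animal's days were averaged on the log2 scale and limma was fitted to 6 animals against the same 6, paired. A transcript was called when its Benjamini-Hochberg adjusted p was under 0.05 and its change exceeded 3-fold. Since FPKM are relative within a sample, a transcript can be lower through fewer cells of a type or through less of it per cell, and these cannot be told apart in bulk RNA.

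The samples were of similar depth. Relative to the median sample, estimated depth was 0.744 to 1.36 in biopsies and 0.751 to 1.65 in milk fat. The day 30 milk fat sample of M6 stood apart: its FPKM summed to 1380850, above every other sample, with 25.7% of them in 6 short non-coding transcripts. Libraries were sequenced in pools, and both sample types of an animal shared a pool in every animal but M5. Biopsies of day 90 and day 30 were compared through their animals' milk fat minus biopsy differences, and by limma 0 transcripts passed an adjusted p of 0.05, with 499 at an unadjusted p under 0.05 and a smallest adjusted p of 0.197.

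Milk fat was lower than biopsy in far more transcripts than it was higher, but the higher transcripts held the larger share of FPKM in milk fat. By limma, 297 transcripts were called higher (2.19% of those tested) and 1011 lower (7.46%). By adjusted p alone, 3255 were higher (24%) and 4473 lower (33%). The called transcripts lay in 282 separate loci for higher and 858 for lower, a locus being a stretch of overlapping transcripts whose reads the authors' estimation had to divide. All 6 animals showed the direction in 271 of the 297 and in 936 of the 1011. On scaled FPKM, all 10 milk fat samples lay above all 6 biopsies in 223 of the 297, against 11.2% of all tested transcripts, and below them in 843 of the 1011, against 17.9%. This separation uses the values that made the calls and is given as a description.

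The median log2 fold change of all tested transcripts was -0.10, and every animal had a negative median, from -0.14 in M4 to -0.07 in M1. The split depended on the scaling. Without scaling, the median was 0.19 and 622 transcripts were called higher against 780 lower, so that 44.4% of calls were higher instead of 22.7%. With factors from the transcripts above 0 in all 16 samples, 427 were higher and 838 lower (33.8% higher). Leaving out M5, whose biopsy and milk fat were in different pools, gave 380 higher and 1106 lower, and with milk fat of the biopsy's own day in 5 animals the counts were 341 and 1038. Without the day 30 milk fat sample of M6 they were 303 and 1021.

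**Figure D1:**
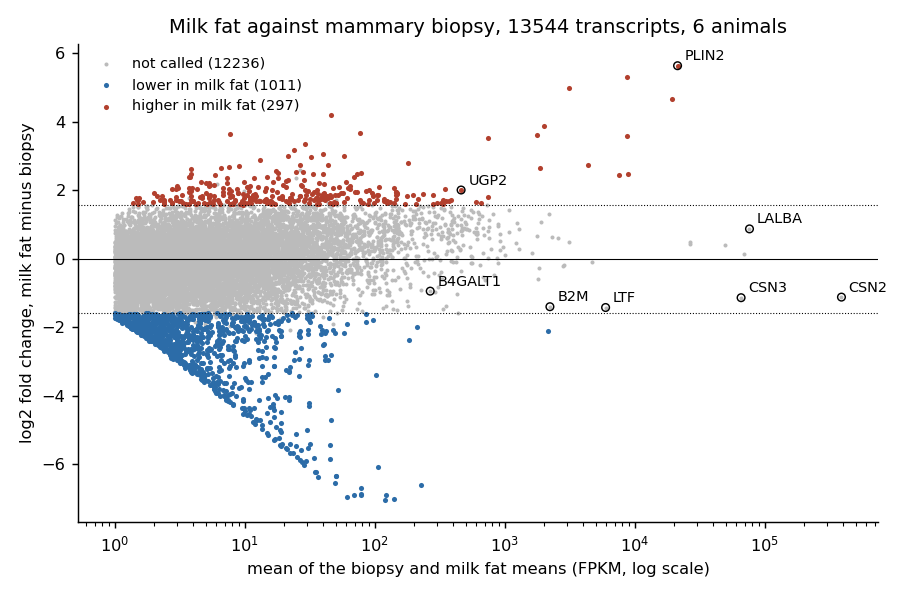
Mean level of each tested transcript in FPKM (log axis) against its log2 fold change, milk fat minus biopsy, over 6 animals; dotted lines mark 3-fold. The 1011 lower transcripts (blue) crowd at low levels along an edge set by transcripts near 0 in milk fat, while the 297 higher ones (red) reach the highest levels, with PLIN2 at the top right.

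The share of calls in each direction differed with the level of expression, although the level is a mean of both sample types and so contains the change itself. Of 4802 transcripts at 1 to 3 FPKM, averaged over the 2 sample types, 0.479% were called higher and 8.41% lower. Of the 4797 at 3 to 10 FPKM the shares were 1.65% and 8.05%. From there the higher share rose to 3.13% at 10 to 30 FPKM (2489 transcripts), 6.78% at 30 to 100 (988) and 9.11% at 100 to 1000 (428), and the lower share fell to 6.47%, 5.16% and 1.87%. Of the 40 transcripts at 1000 FPKM or more, 11 were higher and 1 lower. The median log2 fold change moved with it, from -0.28 in the lowest class to 0.75 at 100 to 1000 FPKM and 0.61 above. In the highest class most higher transcripts, PLIN2 and short ones among them, got there through their milk fat level. With the level taken from biopsies alone, which was tried after seeing the data, higher calls were 1.21% of 4211 transcripts at 1 to 3 FPKM and 7.26% of 317 at 100 to 1000 FPKM, but 1 of 23 at 1000 FPKM or more. Below 1 FPKM they were 5.95% of 740, with 0 lower, so the share did not rise throughout. Those 740 passed the filter only through their milk fat level. The biopsy level is also a part of the change. On that scale lower calls did not thin out between 3 and 100 FPKM (10.3%, 10.1% and 11.4% in the 3 classes), and were 5.68% at 100 to 1000 FPKM. Without scaling every class had a larger share of higher calls, and the order of the classes stayed: 0.895% at 1 to 3 FPKM, 22.7% at 100 to 1000 and 32.5% above. The added 1 FPKM limits how far a transcript of low level can move. With 0.1 added instead, 602 transcripts were called higher and 1643 lower over all levels. How far it limits each direction was not tested.

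The 1011 lower transcripts had a median of 6.83 FPKM in biopsies and 0.329 in milk fat. In 346 of them the milk fat mean was under 0.1 FPKM, and 37 were listed at 0 in all 10 milk fat samples. Summed over these transcripts, they held between 1.43% and 2.48% of a biopsy's FPKM and between 0.149% and 0.355% of a milk fat sample's. The 297 higher transcripts had a median of 6.40 FPKM in biopsies and a median log2 fold change of 1.83. They held 0.573% to 1.66% of a biopsy's FPKM and 5.44% to 33.7% of a milk fat sample's, the highest being the day 30 sample of M6.

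The span of the locus on the genome also separated the calls. Higher calls were 4.65% of 924 transcripts spanning 200 to 1000 bases and 3.67% of 3707 spanning 1 to 10 kb. They were 1.18% of 3804 at 10 to 30 kb, 1.01% of 3564 at 30 to 100 kb, 1.36% of 1105 at 100 to 300 kb and 0 of 133 above, where 24.1% were higher by adjusted p alone. Lower calls changed less with span, from 8.44% at 1 to 10 kb to 6.61% at 100 to 300 kb and 4.51% above (6 of 133). Short loci were also the more abundant ones, so the classes were crossed. Between 10 and 100 FPKM, higher calls made up 7.64% of 301 transcripts at 200 to 1000 bases, 6.54% of 1162 at 1 to 10 kb and 2.08% of 1969 at 10 kb or more. At 100 FPKM or more the shares were 8.92% of 157, 12.2% of 181 and 3.06% of 98. Span was the only length in the files. It includes introns, so it is not the length of the RNA. Whether the lower RNA integrity of milk fat changed the shares by span was not tested.

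Loci under 200 bases behaved apart from the others, with 7.17% of 307 higher and 12.4% lower. They are little longer than the 100-base reads or shorter than a full read, and FPKM divide by that length. Without them 276 transcripts were higher and 978 lower.

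**Figure D2:**
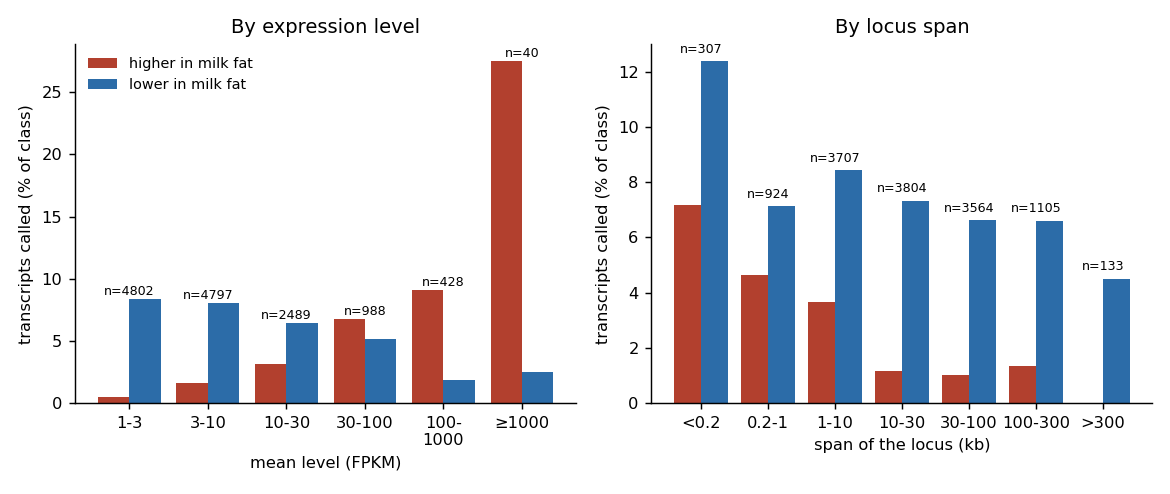
Percentage of tested transcripts called higher (red) or lower (blue) in milk fat, by mean level in FPKM on the left and by span of the locus in kilobases on the right, with the number tested above each pair of bars. Higher calls climb from 0.479% to 27.5% with this level, which includes milk fat itself, and drop below 1.4% for spans of 10 kb or more.

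The largest increase was in PLIN2, which encodes perilipin 2, the protein that coats lipid droplets and milk fat globules. The tested transcripts tied to this gene were 4, with 3 on chromosome 15 and 1 on chromosome 14. The first, ENSMMUT00000025856 (chr15:57864460-57866618, rheMac2), had 378, 471 and 596 FPKM in the lowest, median and highest biopsy and 10079, 33597 and 130490 FPKM in milk fat. Even the lowest milk fat sample was far above the highest biopsy. Its log2 fold change was 5.64 ± 0.35 (SE, limma adjusted p = 2.24e-05), or 49.7-fold, and it was higher in 6 of 6 animals. The others rose by 5.32 (ENSMMUT00000016990), 4.99 (ENSMMUT00000019644) and 4.67 (ENSMMUT00000019645) on the log2 scale, each with a limma adjusted p of 3.82e-05 or less. Such transcripts can share reads where their sequences are alike, so they are not separate pieces of evidence. Together they held 0.124% to 0.251% of a biopsy's FPKM and 2.30% to 26.3% of a milk fat sample's.

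Milk protein transcripts moved far less. The first of the CSN2 transcripts, for beta-casein (ENSMMUT00000042085, chr5:59676470-59680187), was the most abundant transcript in both sample types. It had 336334, 480684 and 633745 FPKM in the lowest, median and highest biopsy and 199149, 290338 and 363291 FPKM in milk fat. The ranges overlapped slightly, with biopsies on the high side. Its biopsies ran from 542640 to 633745 FPKM in M1 to M3 and from 336334 to 418728 in M4 to M6. This split was made after seeing the values. In M4 to M6 its milk fat values were 276490 to 363291 FPKM. It fell by 1.12 ± 0.33 on the log2 scale (SE, limma adjusted p = 0.0210) in 6 of 6 animals, but no longer passed without M1 (adjusted p = 0.0906), M2 (0.0923) or M3 (0.0863), nor with factors over transcripts above 0 (0.0501), with 0.1 added in place of 1 (0.0914) or without the filter on low levels (1). Leaving out the filter brought the tested transcripts to 34070 and left the log2 fold change as it was, here and for the genes below. Why the adjusted p moved was not tested. The second CSN2 transcript overlaps the first, with a log2 fold change of 0.39 (limma adjusted p = 0.151, but 0.0362 without scaling and 0.0416 with factors over transcripts above 0). Its biopsies were ordered the other way, with 14768 to 22513 FPKM in M1 to M3 and 60511 to 68840 in M4 to M6. How reads were divided between the CSN2 transcripts cannot be seen in FPKM. Both together held 43.6% to 60.6% of a biopsy's FPKM and 21.6% to 38.0% of a milk fat sample's.

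CSN3, for kappa-casein, also fell, from a median of 83504 FPKM in biopsies to 47302 in milk fat, with a log2 fold change of -1.13 ± 0.39 (limma adjusted p = 0.0370) and lower values in 4 of 6 animals. Its biopsies split like those of CSN2, with 103962 to 124911 FPKM in M1 to M3 and 46281 to 63046 in M4 to M6. In M4 to M6 its milk fat values were 46136 to 56778 FPKM. It did not pass without M1 (adjusted p = 0.118), M2 (0.115), M3 (0.110) or M5 (0.0638), nor with factors over transcripts above 0 (0.0799), with 0.1 added (0.0601) or without the filter (0.844). LALBA, for the whey protein alpha-lactalbumin, rose from 27654, 43972 and 75671 FPKM in the lowest, median and highest biopsy to 79511, 109780 and 131964 in milk fat, a log2 fold change of 0.87 ± 0.20 (limma adjusted p = 0.00735, but 0.907 without the filter). Both caseins were lower where this whey protein was higher, all under 3-fold. The LALBA biopsies were ordered the other way, with 27654 to 33064 FPKM in M1 to M3 and 54881 to 75671 in M4 to M6. LGB2, a lactoglobulin, had medians of 56888 and 72960 FPKM, and its log2 fold change of 0.13 (95% confidence interval -0.30 to 0.56) did not pass, while without scaling it was 0.52 (limma adjusted p = 0.0304).

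Among 17 abundant coding transcripts, PLIN2 and the lactose genes apart, 2 rose and 5 fell by adjusted p, 10 did not pass, and 0 exceeded 3-fold. Among all tested transcripts 24% were higher and 33% lower by adjusted p, and a share near these is no result about the 17. Their median log2 fold change was -0.09, close to the -0.10 of all transcripts, and since they were chosen as the most abundant in these samples they are not an independent list. LTF, for the iron-binding milk protein lactoferrin, had 5719, 7409 and 12357 FPKM in the lowest, median and highest biopsy and 2173, 3637 and 7988 FPKM in milk fat. It fell by 1.42 ± 0.16 on the log2 scale (limma adjusted p = 0.000394), in every animal. B2M, the light chain of MHC class I found on nearly all nucleated cells, fell by 1.40 ± 0.23 (limma adjusted p = 0.00183), with biopsies at 2320 to 3397 FPKM and milk fat at 1166 to 2003 FPKM. Here the ranges did not touch.

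SPP1, for osteopontin, fell by 0.58 (limma adjusted p = 0.00824), although its unscaled medians of 1893 and 1854 FPKM nearly coincide, and without scaling its change was -0.19 (adjusted p = 0.334). Without the pairing by animal its adjusted p was 0.143. Of the 2 that rose, GLYCAM1, a mucin-like milk glycoprotein, had a log2 fold change of 0.48 (limma adjusted p = 0.0193) and FTH1, the ferritin heavy chain, one of 0.60 (adjusted p = 0.0333). Both missed the threshold without M1 (adjusted p = 0.0665 and 0.0693) or M2 (0.0549 and 0.0531), and FTH1 also without M4 (0.0651), M5 (0.0923) or M6 (0.0699). GLYCAM1 also missed it with milk fat of day 90 only (0.0676) and without the filter (0.18), and FTH1 with milk fat of the biopsy's day (0.0686) and without the filter (0.144). LYZ (lysozyme), FABP3 (a fatty acid carrier), SERF2, ATP5J2 (a subunit of ATP synthase), CD24 (a surface glycoprotein), TPT1, FTL (the ferritin light chain) and MT1E (a metallothionein) had log2 fold changes from -0.26 to 0.63 and did not pass. Some passed elsewhere: without scaling, SERF2 (1.01, limma adjusted p = 0.00256), FABP3 (0.88, adjusted p = 0.0104) and LYZ (0.82, adjusted p = 0.0214) were higher. SERF2 also passed at the 75th percentile (0.0469), and SERF2 and LYZ with factors over transcripts above 0 (0.0381 and 0.0421). With milk fat of day 90 only, SERF2 had an adjusted p of 0.0486. MT1E was lower without M4 (-0.77, adjusted p = 0.00565) and with milk fat of the biopsy's day (-0.76, adjusted p = 0.0108).

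**Figure D3:**
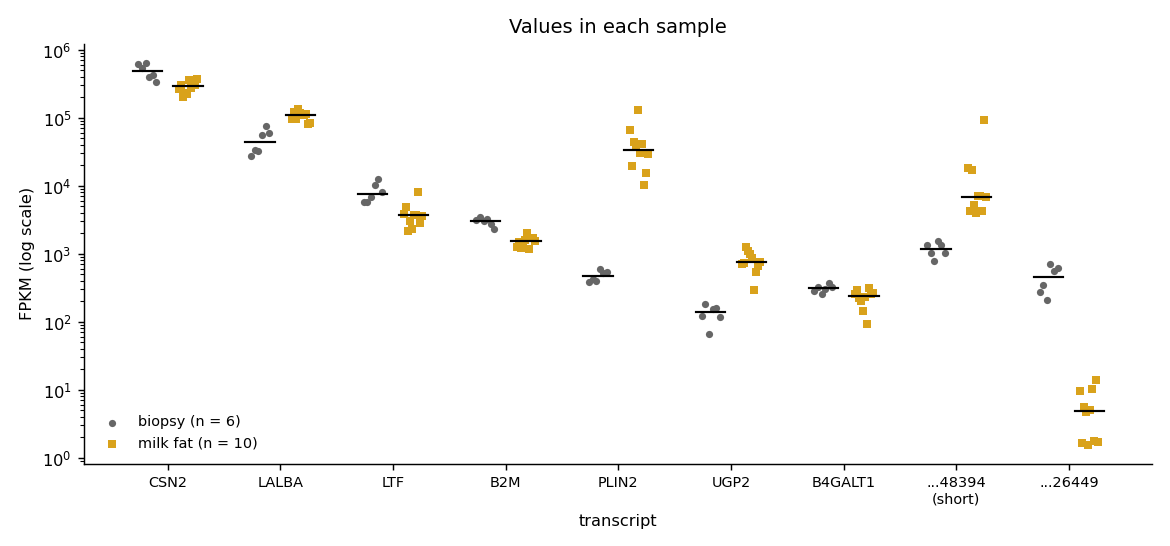
FPKM (log axis) of 9 transcripts in each of 6 biopsies (grey circles) and 10 milk fat samples (yellow squares), with black lines at the medians. PLIN2, UGP2 and a short non-coding transcript stand clear above the biopsies, B2M and ENSMMUT00000026449 clear below, and CSN2, LTF and B4GALT1 overlap, while LALBA is above by a small gap.

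Most enzymes that supply lactose synthesis were higher in milk fat. Lactose is made in the Golgi by beta-1,4-galactosyltransferase 1 (B4GALT1) with LALBA as its partner, from glucose and UDP-galactose. Of 8 transcripts of this pathway examined here, 7 rose and 1 fell by adjusted p, and UGP2 passed 3-fold. Among all tested transcripts 24% were higher and 33% lower by adjusted p, and 2.19% were called higher. The median log2 fold change was 0.80, beside -0.10 for all tested transcripts, and the list was already known to differ in these samples, so its direction is not independent evidence.

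UGP2, which makes UDP-glucose, had 64.7, 136 and 179 FPKM in the lowest, median and highest biopsy and 292, 748 and 1253 FPKM in milk fat, a log2 fold change of 2.01 ± 0.29 (limma adjusted p = 0.00097). The sample types did not overlap. The nucleotide kinases NME2 and CMPK1 rose by 1.43 and 0.62 on the log2 scale. The sugar phosphate enzymes GALK1 (galactokinase), PGM1 (phosphoglucomutase) and GALT (galactose-1-phosphate uridylyltransferase) rose by 0.90, 0.73 and 0.52, the largest limma adjusted p of these 5 being 0.00839.

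B4GALT1 itself went the other way. It had 254, 309 and 373 FPKM in the lowest, median and highest biopsy and 93.5, 241 and 312 FPKM in milk fat, and fell by 0.94 ± 0.18 on the log2 scale (limma adjusted p = 0.0034) in 6 of 6 animals. Without scaling it had a change of -0.56 and missed the threshold (adjusted p = 0.0634). Its stretch of overlapping transcripts holds 21, more than that of any other lactose gene named here.

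**Figure D4:**
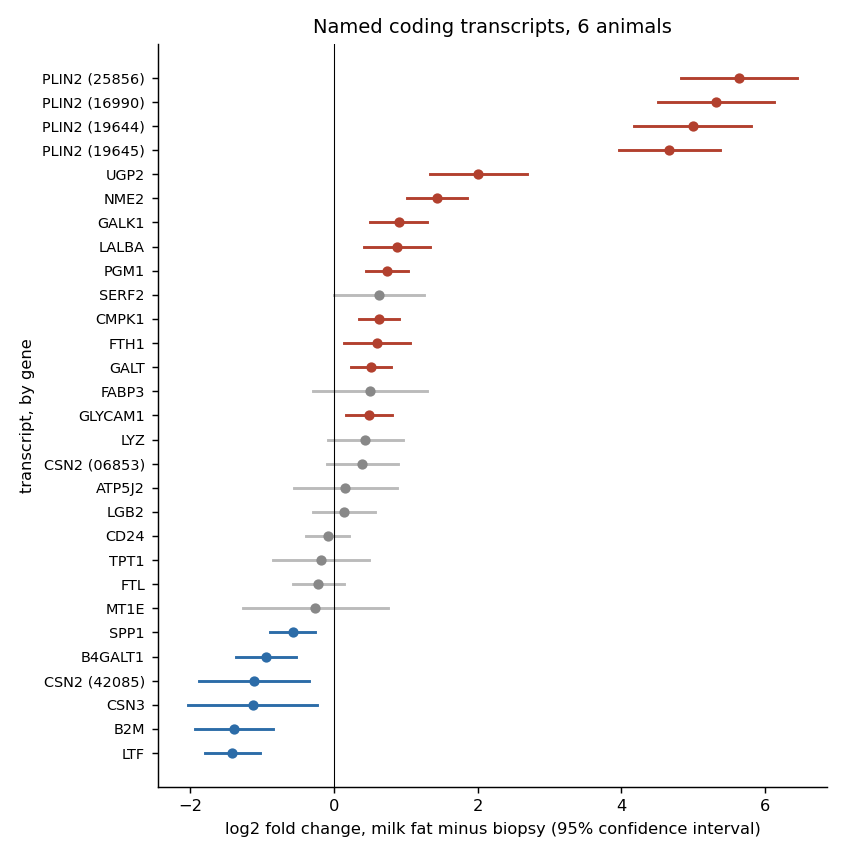
Log2 fold change, milk fat minus biopsy, of 29 coding transcripts with gene names, with 95% confidence intervals from limma over 6 animals; red passed an adjusted p of 0.05 upward, blue downward, grey did not pass. The 4 PLIN2 transcripts lie between 4.67 and 5.64, 7 of 8 lactose genes lie above 0, and LTF and B2M are lowest.

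Short non-coding transcripts formed the other abundant group that rose. Among the most abundant transcripts are 6 without a name that span 75 to 94 bases, and 5 of them were called higher and 1 lower, beside 2.19% and 7.46% of all tested transcripts and 7.17% and 12.4% of loci under 200 bases. They were picked as abundant in these samples, so the count is a description. Each of the 6 spans less than a full 100-base read. ENSMMUT00000048394 (chr19:22999704-22999795) had 775, 1182 and 1534 FPKM in the lowest, median and highest biopsy and 3928, 6836 and 91716 FPKM in milk fat, a log2 fold change of 2.47 ± 0.38 (limma adjusted p = 0.0013). Its highest value was the day 30 sample of M6, and without that sample the change was 2.16. The changes of ENSMMUT00000052972 and ENSMMUT00000052166 were 3.87 and 3.58, and 3.55 and 3.25 without that sample. ENSMMUT00000052199 (2.44) missed the threshold with milk fat of the biopsy's own day in 5 animals (adjusted p = 0.0864). ENSMMUT00000051415 was the exception: it had 2111, 3041 and 5166 FPKM in biopsies and 257, 810 and 2351 FPKM in milk fat, and fell by 2.10 ± 0.48 on the log2 scale (limma adjusted p = 0.00747). The study searched its abundant non-coding RNAs by BLAST and reported homology to ribosomal RNAs of humans. The 6 were tied to those RNAs by level alone, and their sequences were not examined here. The libraries were made from polyadenylated RNA, and whether these short RNAs carry such a tail was not tested.

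Among the 10 largest increases, 4 were PLIN2, 4 were short transcripts and 2 were longer loci with no name at hand. Of the latter, ENSMMUT00000024754 (chr14:116740082-116777631) had 1.62, 2.42 and 3.07 FPKM in the lowest, median and highest biopsy and 42.3, 77.8 and 213 FPKM in milk fat. Its log2 fold change of 4.19 ± 0.22 had a limma adjusted p of 1.11e-05. ENSMMUT00000038451 (chr19:53824354-53851231) was near 0 in 5 biopsies and 0.633 FPKM in the other, with 7.38, 12.3 and 31.3 FPKM in milk fat, a log2 fold change of 3.63 ± 0.29 (limma adjusted p = 6.94e-05).

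By level, the 10 most abundant higher transcripts were the 4 of PLIN2 and 6 short ones. The 10 most abundant lower ones were more mixed. ENSMMUT00000000268 (chr6:43322328-43352674) kept 69.3, 93.8 and 147 FPKM in the lowest, median and highest milk fat sample, against 199, 312 and 462 in biopsies, a log2 fold change of -2.0 ± 0.28 (limma adjusted p = 0.000911). ENSMMUT00000018129 fell by 2.38, ENSMMUT00000012359 by 3.38 and ENSMMUT00000013205 by 1.78 on the log2 scale, and each also stayed above 10 FPKM in every milk fat sample. ENSMMUT00000014796 was uneven among biopsies, from 7.85 FPKM to 363, and had 0.817 to 2.58 FPKM in milk fat.

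The largest decreases were transcripts that were plain in every biopsy and close to absent from milk fat. ENSMMUT00000025316 (chr6:134881997-134885796) had 49.2, 169 and 551 FPKM in the lowest, median and highest biopsy and 0.342, 0.629 and 1.23 FPKM in milk fat. It fell by 7.05 ± 0.43 on the log2 scale (limma adjusted p = 2.12e-05). ENSMMUT00000032425 (chr3:122836027-122838120) had 55.4, 88.1 and 275 FPKM in biopsies and was listed at 0 in all 10 milk fat samples. ENSMMUT00000026449 (chr14:8929586-8929753), the one with the highest level among these 10, had 207, 451 and 706 FPKM in biopsies and 1.55, 4.82 and 13.8 FPKM in milk fat, a log2 fold change of -6.60 ± 0.25 (limma adjusted p = 2.54e-06).

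The 10 lie on 7 chromosomes, and for each of the 10 all milk fat samples were below all biopsies. The same held for 17.9% of all tested transcripts and 83.4% of the lower set. Since the 10 were picked as the largest decreases, this is a description only. None of the 10 has a gene name in the tables at hand, and the markers of stromal, vascular, fat and immune cells could not be looked up for the same reason. The labelled tissue was therefore checked only by beta-casein, the most abundant transcript in every sample. As it led in biopsies and milk fat alike, it does not tell these labels apart.

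By chromosome, calls were spread broadly. Higher calls ran from 0.535% on chromosome 18 to 4.06% on chromosome 19, and lower calls from 3.21% on chromosome 18 to 9.80% on chromosome 17. At a finer scale, 476 windows of 2 Mb held at least 10 tested transcripts. In 162 of them 0 transcripts were called lower, and the median window had 6.56% lower.

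A pair of windows stood out for decreases. In chr10:66000001-68000000, 22 of 33 transcripts, in 13 loci, were lower and 0 higher. Their log2 fold changes were -5.56 to -2.07. Summed over the 22, biopsies had 96.8, 310 and 645 FPKM as lowest, median and highest, and milk fat had 0.296, 1.16 and 12.7 FPKM. The sample types did not overlap in this sum, but the 22 were called lower from the same values, so this is a description. Taken singly, 15 of the 22 were lower in 6 of 6 animals, and in 13 all milk fat samples lay below all biopsies. Of all 1011 lower calls these were 936 and 843. Milk cells, summed alike and given as background, ran from 3.44 to 310 FPKM with a median of 19.1. Of the 22, 15 span under 600 bases.

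In chr13:88000001-90000000, 9 of 16 transcripts were lower and 0 higher. Summed over the 9, which again only describes called transcripts, they had 153, 252 and 442 FPKM in biopsies and 0.282, 0.570 and 6.52 FPKM in milk fat. The leading one, ENSMMUT00000011476 (chr13:89408183-89712646), had 90.9, 143 and 246 FPKM in biopsies and a highest milk fat value of 4.50 FPKM, a log2 fold change of -6.87 ± 0.11 (limma adjusted p = 1.41e-07). Next came chr3:20000001-22000000, with 5 of 11 lower.

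These windows hold rows of very short loci. Among all 549 tested transcripts spanning from 250 to under 600 bases, a class chosen after the values were seen, 29 of 74 on chromosomes 10 and 13 were lower (39.2%), against 4.21% on the other chromosomes; both chromosomes were picked for their decreases. As background, antibody and T-cell receptor genes are built from many short variable segments laid out in arrays. A RefSeq table of another assembly (T2T-MMU8v2.0) lists variable segments on 4 chromosomes: 30 on 7, 19 on 13, 12 on 3 and 11 on 10. The transcripts could not be matched to that table, so whether the loci above are such segments was not tested. In the same class of span, 1 of 31 transcripts on chromosome 7 and 0 of 19 on chromosome 3 were lower. Counting any span, 4 of 5 tested transcripts in chr7:169000001-170000000, a stretch looked at apart, were lower. It lies in a window of 2 Mb with 6 of 26 lower. Only 1 of the 4 spans 250 to under 600 bases. Summed over the 4, also as a description, biopsies had 44.9 to 264 FPKM and milk fat 0.593 to 3.65 FPKM. For increases, no window held more than 7 calls, and the most were 7 of 76 in chr14:10000001-12000000.

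**Figure D5:**
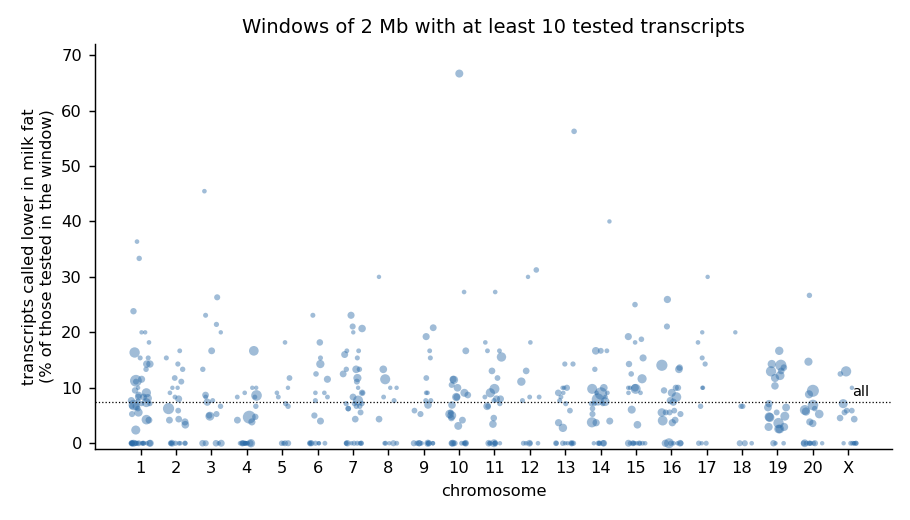
Percentage of tested transcripts called lower in milk fat in each of 476 windows of 2 Mb, by chromosome; point size follows the number tested, sideways spread is only for legibility, and the dotted line is the 7.46% of all tested transcripts. Single windows on chromosome 10 (66.7%) and chromosome 13 (56.2%) lie highest.

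The make-up of the RNA shifted with these transcripts. Milk fat spread its FPKM over more transcripts at the top: 50% of the sum was held by 1 to 3 transcripts in biopsies and by 3 to 8 in milk fat, higher in 6 of 6 animals (exact sign-flip test, two-sided p = 0.031, the smallest that 6 animals allow, adjusted p = 0.0625). At the bottom the order was turned, with 13099 ± 1007 transcripts at 1 FPKM or more in biopsies and 12263 ± 581 in milk fat (SD, n = 6 animals), but only 4 of 6 animals were lower (exact sign-flip p = 0.188). Chromosome 5, which holds CSN2 and CSN3, fell from 61.8% ± 9.01 to 35.9% ± 4.88 of the summed FPKM, lower in 6 of 6 animals. Chromosome 15 rose from 6.89% ± 2.34 to 13.4% ± 2.76, and loci of 200 to 1000 bases from 5.19% ± 0.85 to 11.7% ± 2.41 (SD, n = 6). Each had an exact sign-flip p of 0.031, and 0 of the 7 span classes and 21 chromosomes passed after adjustment (smallest adjusted p = 0.0547 and 0.0729). Without the 20 most abundant transcripts the difference on chromosome 15 turned to -0.30 percentage points, and that on chromosome 5 shrank from -25.9 to -0.39.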

How the data were processed

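The authors prepared libraries from poly(A)-selected RNA, trimmed the 100-base reads, used TopHat and Bowtie to map them (build rheMac2), and estimated FPKM per Ensembl release 67 transcript with Cufflinks, which divides reads among overlapping transcripts. These FPKM, per transcript and technical run, are the values as deposited. They hold no read counts, so no counting error is given. Another 6 columns matched no described sample and were not used.

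The 3 runs of a sample were averaged. Relative depth came from the spacing of low FPKM. Scaling used the median of ratios of the 8225 transcripts at 1 FPKM or more in all 16 samples. Transcripts whose mean of the biopsy and milk fat means was at least 1 FPKM were tested on log2(scaled FPKM + 1) by limma 3.58.1 (R 4.3.3) with an intensity trend, the animal as a block and Benjamini-Hochberg adjustment, after the script was tested on simulated data. Animals pair the samples by label. Deviations from the group means correlated by 0.0711 to 0.252 within animals, and by -0.0308 on average between animals. The replicates are the 6 animals. Summed shares were tested by exact sign-flip over animals in scipy 1.17.1.

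Named transcripts were those of genes the study names, the 10 called transcripts that rose most and the 10 that fell most while moving alike in 6 of 6 animals, and the 10 of highest level in each called set. Names came from 7 identifiers the study prints or from its tabulated means, which 22 coding transcripts met within 1.52%. The 6 non-coding ties were looser (3.81% to 24.2%). The result of 1 transcript is not reported here. Other names could not be given: 0 identifiers matched the gene tables at hand. The members, lists and classes were chosen with earlier results of these data known. Alternatives covered scaling, the added value, the filter, the block, the trend, overlapping loci, days, short loci and each animal left out.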

Additional observations from a re-analysis of the deposited data

Results flagged for a closer look

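Single samples were checked for gaps to the rest of their group (Dixon's ratio, 95% level) in 122 groups of values. Chance flags about 1 in 20, or 6.1 if the groups were independent, which they are not, and 13 single values stood out. The day 30 milk fat sample of M6 gave 7 of these values. It was high in 5 short transcripts, with 91716 FPKM of ENSMMUT00000048394, 87651 of ENSMMUT00000052166, 107391 of ENSMMUT00000052199, 789 of ENSMMUT00000051341 and 18120 of ENSMMUT00000051282. It was also highest in ENSMMUT00000031083 (2.76 FPKM) and had only 51.4% of its FPKM in loci of 1 to 10 kb.

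Among other milk fat samples, M4 at day 90 was highest in FTH1 (5023 FPKM) and in ENSMMUT00000013054 (0.747 FPKM), and M3 at day 30 had 23.1% of its FPKM on chromosome 15, where 3 PLIN2 transcripts lie. Among biopsies, M1 was highest in ENSMMUT00000052199 (1193 FPKM), M3 in ENSMMUT00000024754 (3.07 FPKM) and M6 in ENSMMUT00000038451 (0.633 FPKM). The causes were not tested.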

How the results depend on the processing

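Of 205 recomputed comparison values, 152 were counted as unchanged. For numbers and percentages of calls this took in their size. For summed shares it took in direction and side of the threshold only, not size. Higher calls (297) became 622 as deposited, 602 with 0.1 added and 154 summed over overlapping loci, and lower calls (1011) became 1643 with 0.1 added and 390 at a mean of at least 5 FPKM. At 100 FPKM or more, 23.5% were higher as deposited and 16.2% with factors over transcripts above 0 (10.7% as reported), and 7.06% with the level from biopsies alone (the settings of level were chosen after seeing the data), and at 1 to 10 FPKM 14.5% were lower with 0.1 added, 3.45% with the level from milk fat alone and 3.29% with the smaller of the means (8.23%). Higher calls at 200 to 10000 bases (3.87%) and at 10000 or more (1.12%) became 8.49% and 2.34% as deposited, 6.78% and 3.10% with 0.1 added, 1.40% and 0.425% without a filter, and 6.18% and 1.73% at a mean of at least 5, where 6 lower calls were left in the chromosome 10 window and 3 in that of chromosome 13.

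Without the 20 highest transcripts, loci of 1 to 10 kb changed from -6.64 to 0.486 percentage points (exact sign-flip p = 0.5) and chromosome 15 from 6.54 to -0.301. Chromosome 5 kept its direction but shrank from -25.9 to -0.393. With 5 animals the smallest p is 0.0625, so no share could pass; the differences were 5.90 to 7.28 (200 to 1000 bases), -7.42 to -5.57 (1 to 10 kb), -4.67 to -3.73 (10 to 30 kb), -28.5 to -23.5 (chromosome 5) and 5.42 to 7.80 (chromosome 15). With an animal left out, calls were 212 (without M2) to 395 (without M6) higher and 938 to 1123 lower. The fit without the replicate block, so without pairing, gave 293 higher and 1011 lower, and among named transcripts it moved only SPP1 across the threshold.

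Among named transcripts that did not pass as reported, the sign turned, without passing, in these: CD24 (0.30 as deposited, 0.016 at the 75th percentile, 0.11 with factors over transcripts above 0), TPT1 (0.20 and 0.019), FTL (0.16) and MT1E (0.12) as deposited, and with animals left out LGB2 (-0.0066 without M4, up to 0.19) and ATP5J2 (-0.017 without M4 and -0.0023 without M6, up to 0.33). The causes were not tested. FPKM without counts limit what can be said of low levels.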
